A study of Arabidopsis thaliana with 4 samples.

Results

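The nuclear genes for the subunits of photosystems I and II, for their chlorophyll a/b-binding antenna proteins and for the small subunit and the activase of Rubisco were followed across leaf transcriptomes of WT Arabidopsis and of 2 lines that carry a transgene of, or an insertion in, *AtBBD1*, a gene for a bifunctional nuclease of basal defense. The members were fixed by gene ID from a named list of 48 genes, and all 48 were found among the 27655 genes of the deposited table. They fell into 6 complexes, with 6 LHCI antenna genes, 9 LHCII trimer genes, 6 genes of minor and rare photosystem II (PSII) antenna proteins, 12 photosystem I (PSI) subunit genes, 10 PSII subunit genes and 5 genes of Rubisco and its activase. The rule uses gene IDs and no measured value, although the members were chosen with earlier results of these data known.

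Messenger RNA of leaves of 3-week-old, soil-grown plants of ecotype Columbia was sequenced in 4 libraries, 1 per condition and none replicated. The sample titles call these plants seedlings, and the methods of the study name leaves. The conditions were OX5-4 after 6 h of 20% PEG, *atbbd1* after 6 h of 20% PEG, WT after 6 h of 20% PEG, and WT at 0 h without PEG. Polyethylene glycol (PEG) lowers the water potential of the soil solution and imposes a drought-like stress. OX5-4 is 1 homozygous line carrying an *AtBBD1* transgene, called p35S:AtBBD1 in the labels and placed behind a promoter of cassava vein mosaic virus in the methods of the study, and *atbbd1* is 1 T-DNA insertion line, so that line and genotype cannot be told apart. Leaves of several plants were pooled for each library. The 4 libraries include no untreated one at 6 h and none of OX5-4 or *atbbd1* at 0 h, so the effect of PEG and that of 6 h of the day cannot be told apart.

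In each photosystem, reaction centre proteins made in the chloroplast are surrounded by subunits and antenna proteins that are encoded in the nucleus and imported into the plastid. The antenna proteins, the LHC proteins, bind chlorophyll a and b and pass excitation energy to the reaction centres, and their relative amounts set how much light each photosystem receives. Rubisco fixes CO2 in the Calvin-Benson cycle and joins a large subunit made in the chloroplast to a small subunit, RBCS, made from a nuclear gene family, while Rubisco activase, RCA, removes inhibitory sugar phosphates from its active site. The transcripts of these genes are among the most abundant of green leaves and many of them follow light and the circadian clock.

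The upstream sequences of 6 members are given first, picked by hand among members with large differences described below or with a copy that behaved otherwise. Each is the 250 bases before the annotated gene start in RefSeq TAIR10.1, read 5′ to 3′ on the strand of the gene, and capitals mark exact matches, on either strand, to 5 letter strings. The strings were the CCA1-binding letters AAAAATCT and AACAATCT, the evening element AAATATCT, the G-box CACGTG and the I-box GATAAG, which are known from promoters of light- and clock-regulated plant genes.
LHCB1.4, chr2:14524357-14524606, plus strand: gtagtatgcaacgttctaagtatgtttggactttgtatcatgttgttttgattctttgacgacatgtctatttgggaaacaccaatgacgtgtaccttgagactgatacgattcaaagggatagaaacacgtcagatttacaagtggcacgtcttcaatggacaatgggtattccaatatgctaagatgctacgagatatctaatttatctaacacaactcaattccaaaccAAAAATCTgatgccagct
LHCB1.1, chr1:10475970-10476219, minus strand: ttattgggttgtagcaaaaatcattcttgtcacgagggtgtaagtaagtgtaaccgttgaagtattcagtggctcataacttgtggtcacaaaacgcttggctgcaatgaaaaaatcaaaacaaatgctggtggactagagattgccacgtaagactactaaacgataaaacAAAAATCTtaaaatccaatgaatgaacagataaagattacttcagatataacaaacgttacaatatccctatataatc
PSBQ2, chr4:2673244-2673493, minus strand: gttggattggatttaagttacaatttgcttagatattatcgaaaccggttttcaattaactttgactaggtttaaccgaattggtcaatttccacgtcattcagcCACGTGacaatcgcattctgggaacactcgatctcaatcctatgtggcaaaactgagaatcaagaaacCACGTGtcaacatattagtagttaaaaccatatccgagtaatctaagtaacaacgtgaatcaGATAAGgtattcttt
RBCS2B, chr5:15382072-15382321, minus strand: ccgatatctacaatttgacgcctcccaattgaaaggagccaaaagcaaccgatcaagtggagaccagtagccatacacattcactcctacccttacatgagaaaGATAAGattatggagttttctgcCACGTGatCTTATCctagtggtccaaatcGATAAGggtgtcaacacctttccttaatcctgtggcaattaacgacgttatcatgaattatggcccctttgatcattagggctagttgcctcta
RBCS1B, chr5:15385321-15385570, minus strand: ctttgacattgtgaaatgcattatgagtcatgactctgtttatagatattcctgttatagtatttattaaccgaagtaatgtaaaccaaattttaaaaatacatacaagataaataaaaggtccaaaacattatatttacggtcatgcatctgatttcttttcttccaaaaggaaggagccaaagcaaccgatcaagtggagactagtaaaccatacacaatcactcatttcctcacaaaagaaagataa
RCA, chr2:16573693-16573942, minus strand: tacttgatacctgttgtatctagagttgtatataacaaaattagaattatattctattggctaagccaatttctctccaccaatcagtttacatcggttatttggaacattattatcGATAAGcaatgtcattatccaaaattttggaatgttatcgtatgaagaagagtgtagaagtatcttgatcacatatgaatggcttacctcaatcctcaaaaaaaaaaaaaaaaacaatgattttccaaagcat

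Among the same windows of 27443 nuclear genes of the table, 28.4% held at least 1 of the 5 strings, as did 22 of the 48 members (45.8%). The windows printed above are not typical of the members, since all but that of *RBCS1B* hold a string. *LHCB4.3*, *LHCB1.5* and *PSBS* differed more than *PSBQ2* between the WT libraries, and their windows, not printed, hold none. The G-box stood in 10 members (20.8%) against 6.49% of all promoters, and the I-box in 11 members (22.9%) against 12.3%. Either CCA1-binding form stood in 6 members (12.5%) against 8.38%, namely *LHCA4*, *LHCB1.1*, *LHCB1.4*, *PSAE2*, *PSAN* and *PSAO*. The evening element stood in 1 member, *LHCA5*, against 4.79% of all promoters. In the comparison of WT after PEG with WT at 0 h described below, a string stood upstream of 3 of the 6 members higher by 2-fold or more, of 2 of the 5 lower by 2-fold or more, and of 17 of the 37 between. These matches are letters in a window and not mapped binding sites. The windows are set by annotated gene starts, which lie at different distances from the coding start in different copies. A string absent from a window may therefore lie within the annotated gene.

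Several members have near-identical copies, and the bases at which the copies differ decide which copy a read is assigned to. *LHCB1.1*, *LHCB1.2* and *LHCB1.3* differ at 47 of their 804 coding bases, and the 60-base coding stretch within an exon with the most differences, coding positions 25 to 84, is printed with the differing bases in capitals.
LHCB1.1, chr1:10475809-10475868, minus strand: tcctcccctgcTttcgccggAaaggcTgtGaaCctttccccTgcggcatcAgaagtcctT
LHCB1.2, chr1:10473163-10473222, minus strand: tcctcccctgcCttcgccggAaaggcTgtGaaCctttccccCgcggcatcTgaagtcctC
LHCB1.3, chr1:10478095-10478154, plus strand: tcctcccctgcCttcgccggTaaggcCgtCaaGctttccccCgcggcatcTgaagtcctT
In this stretch 8 of the 60 bases differ. *RBCS1B* and *RBCS2B* differ at 15 of their 546 coding bases, 4 of which fall in coding positions 16 to 75, the stretch of this pair chosen in the same way.
RBCS1B, chr5:15385081-15385140, minus strand: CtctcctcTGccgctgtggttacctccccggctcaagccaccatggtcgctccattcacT
RBCS2B, chr5:15381904-15381963, minus strand: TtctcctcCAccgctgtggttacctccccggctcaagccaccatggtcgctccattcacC
In windows of 75 bases, 37 of the 48 members shared no window with another gene of the table, overlapping neighbours left aside. On the same count the highest share was that of *LHCB2.2*, of whose windows 20.5% also occurred in *LHCB2.1*. *LHCB1.1* shared 10.4%, *LHCB1.3* 7.53%, *RBCS3B* 14.1% and *RBCS1B* 9.33% of their windows with copies. The sources used here do not say how reads from such shared stretches were placed, so values of single copies are less certain than their sums. Windows also fell within the span of an overlapping neighbour for 6 members at 10% of windows or more, *LHCB2.3*, *LHCB3*, *PSAE1*, *PSAG*, *PSAH1* and *PSAH2*, and the values of these 6 are less certain for that reason.

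Levels are given as FPKM, fragment counts corrected for exon length and library size. The library size was recovered from the steps between low values, and it came to 17693405 for OX5-4, 16991845 for *atbbd1*, 15730597 for WT after PEG and 15331872 for WT at 0 h, with 99.0% to 99.1% of values within 0.15 of a whole read. The interval given with a ratio is the exact 95% binomial one for the recovered reads. It covers counting error alone, and without replicates the spread between plants and between preparations is unknown. Reads per member ran from 313 for *LHCB7* in *atbbd1* to 600462 for *LHCB1.3* in *atbbd1*, and counting error is small for most members. *AtBBD1* itself had 631 FPKM in OX5-4, 36.6 FPKM in *atbbd1*, 541 FPKM in WT after PEG and 95.5 FPKM in WT at 0 h, so that the library of the overexpression line held 1.17 times the FPKM of WT after PEG (95% interval 1.14 to 1.19). All 5 leaf mesophyll markers had at least 268 FPKM in every library, 3 of 4 root markers and 4 of 6 flower and meristem markers were at 0 in every library, and *MYB66*, a root marker, had 1 read in 1 library. In a bulk leaf sample, fewer cells of a type and less RNA per cell cannot be told apart.

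The 48 members together held 31.7% of all FPKM in OX5-4, 35.8% in *atbbd1*, 33.8% in WT after PEG and 26.1% in WT at 0 h. In each of the 4 libraries all of the 10 genes with the highest FPKM were members, and 42 of the highest 100 were. The spread within the set was wide. *LHCB1.3* had the highest level after PEG in each genotype, with 24370 FPKM in OX5-4, 28730 FPKM in *atbbd1* and 28005 FPKM in WT, while *RBCS1A* had the highest level at 0 h in WT, with 15027 FPKM. At the other end stood *LHCB7* and *LHCB4.3*, which had between 15.2 and 79.5 FPKM in all 4 libraries, and *LHCA5* and *LHCA6*, which had between 88.5 and 223 FPKM. The other 44 members had at least 343 FPKM in every library.

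**Figure D1:**
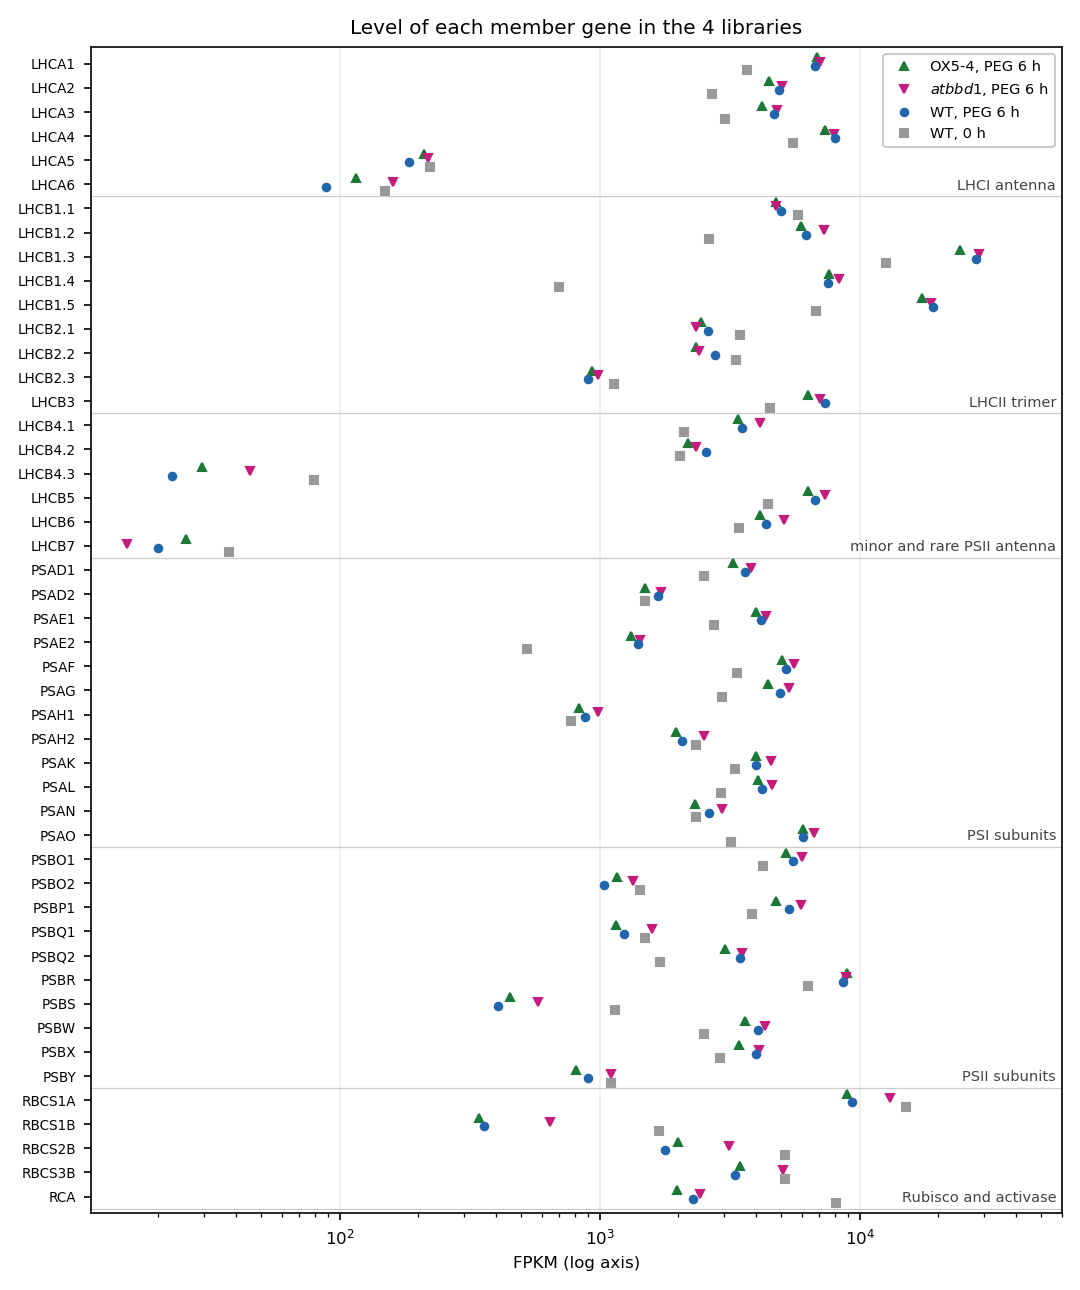
FPKM of each of the 48 members on a log axis, 1 row per gene grouped by complex, with 1 point for each of the 4 libraries. For *LHCB1.4* the WT 0 h point stands far to the left of the 3 PEG points (7581 FPKM in WT after PEG against 696 FPKM in WT at 0 h), and for *RCA*, *RBCS1B* and *RBCS2B* it stands to the right of them, while for *RBCS3B* the *atbbd1* point (5083 FPKM) lies beside it (5166 FPKM).

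The weight of the complexes differed between WT after PEG and WT at 0 h. LHCII trimer genes held 12.6% of all FPKM in WT after PEG and 6.74% in WT at 0 h. Rubisco and activase genes held 2.7% in WT after PEG and 5.78% in WT at 0 h. In *atbbd1* they held 3.77%, between the values of the other PEG libraries and of WT at 0 h.

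**Figure D2:**
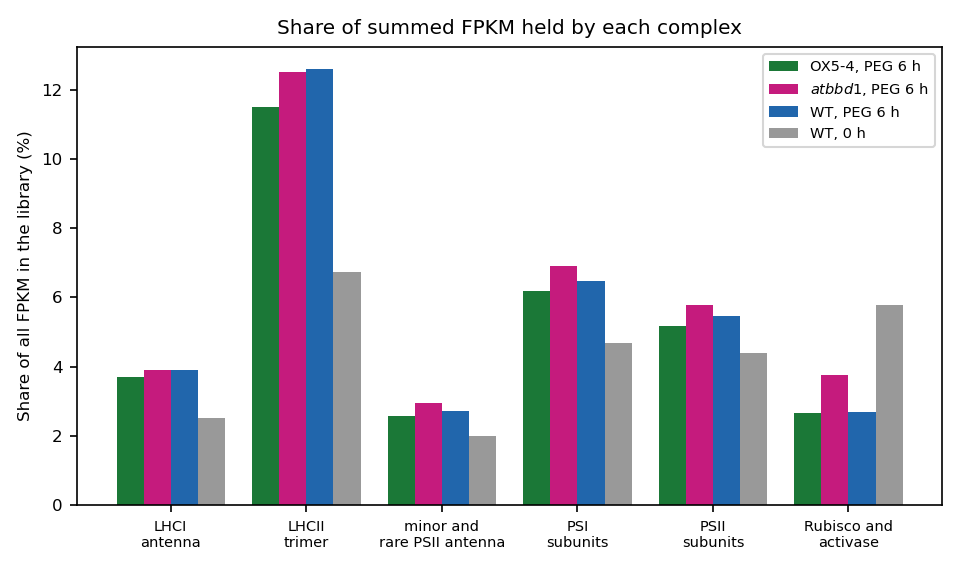
Share of all FPKM in a library (%) held by each of the 6 complexes, as bars for OX5-4, *atbbd1* and WT after 6 h of PEG and WT at 0 h, without replicates. The 3 PEG bars of the LHCII trimer stand at 11.5% to 12.6% and the WT 0 h bar at 6.74%, while the WT 0 h bar is the tallest of the Rubisco and activase group.

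The first comparison set WT after PEG against WT at 0 h, and asked how the genes of the photosynthetic apparatus stood 6 h into the stress. Antenna and photosystem genes were mostly above their 0 h level, and all 5 Rubisco and activase genes were below it. There were 30 members above and 18 below their 0 h level, with a median log2 ratio, at a pseudocount of 1 FPKM, of 0.37, against 0.04 over all 16374 genes that reached 1 FPKM in a library. At a ratio of at least 2, the threshold of the study, 6 members (12.5%) were higher, namely *LHCB1.2*, *LHCB1.3*, *LHCB1.4*, *LHCB1.5*, *PSAE2* and *PSBQ2*, where 16.1% of all genes were. Lower by the same threshold were 5 members (10.4%), namely *LHCB4.3*, *PSBS*, *RBCS1B*, *RBCS2B* and *RCA*, where 15.9% of all genes were. Both shares lie near or below those of all genes, so the number of calls is not particular to these genes.

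**Figure D3:**
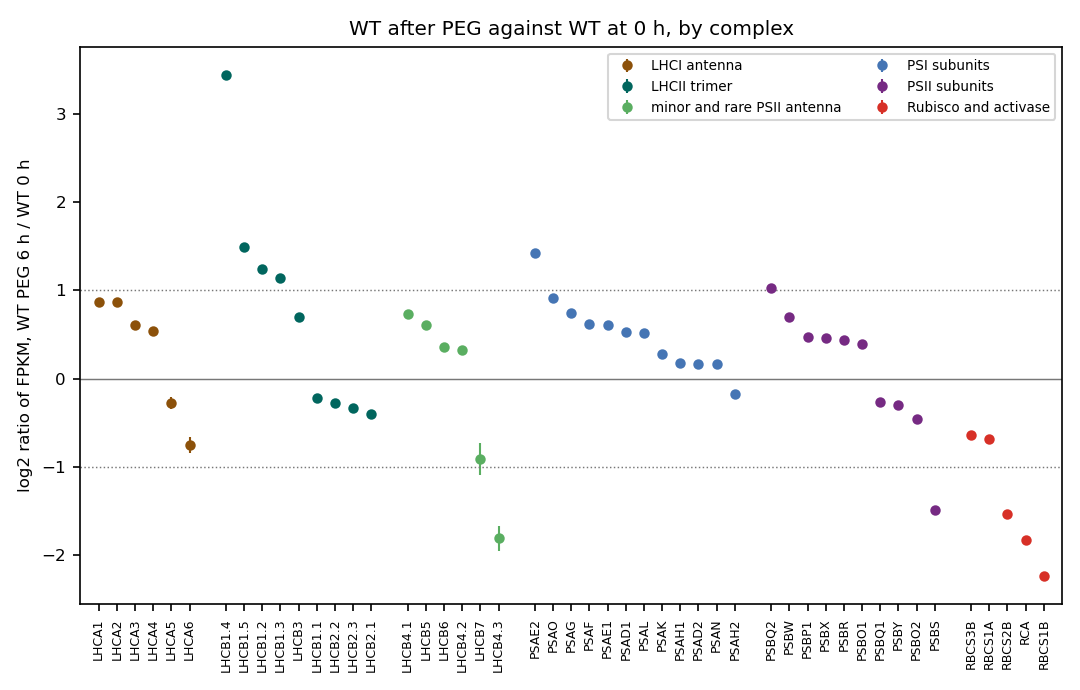
Log2 ratio of FPKM in WT after PEG over WT at 0 h for each of the 48 members, coloured by complex and ordered within it, with exact 95% counting intervals, most of which are smaller than the points. Dotted lines mark a ratio of 2 in each direction, beyond which *LHCB1.4* stands at 3.44 and *RBCS1B* at -2.23.

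In the LHCII trimer, the main antenna of PSII, the summed FPKM was 79580 in WT after PEG and 41035 in WT at 0 h, a ratio of 1.94. The difference lay in the genes of LHCB1, the most abundant LHCII protein, and in *LHCB3*. *LHCB1.4* (AT2G34430) had 7626 FPKM in OX5-4, 8296 in *atbbd1*, 7581 in WT after PEG and 696 in WT at 0 h. It was 10.9 times higher in WT after PEG than in WT at 0 h (95% interval 10.7 to 11.1), the highest ratio of the 48 members, and all 3 PEG libraries stood far above the 0 h library. *LHCB1.5* (AT2G34420), which lies head to head with *LHCB1.4* on chromosome 2 with 1038 bases between them, had 17428 FPKM in OX5-4, 18736 in *atbbd1*, 19157 in WT after PEG and 6797 in WT at 0 h, 2.82 times higher in WT after PEG.

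The cluster of *LHCB1* genes on chromosome 1 was divided. *LHCB1.2* (AT1G29910) had 5939 FPKM in OX5-4, 7275 in *atbbd1*, 6229 in WT after PEG and 2642 in WT at 0 h, 2.36 times higher in WT after PEG. *LHCB1.3* (AT1G29930) had 28005 FPKM in WT after PEG and 12657 FPKM in WT at 0 h, 2.21 times higher. *LHCB1.1* (AT1G29920), the neighbour of both, had 4964 FPKM in WT after PEG and 5782 FPKM in WT at 0 h, a ratio of 0.858 (0.851 to 0.866). *LHCB1.1* thus stood on the other side of its 0 h level from its 4 sister copies. *LHCB1.4* and *LHCB1.1* both carry the CCA1-binding letters AAAAATCT in the windows printed above, starting 18 and 78 bases before the gene start.

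The make-up of the *LHCB1* pool differed accordingly. *LHCB1.4* held 11.5% of *LHCB1* FPKM in WT after PEG and 2.44% in WT at 0 h, and *LHCB1.1* held 7.53% in WT after PEG and 20.2% in WT at 0 h. *LHCB1.3* held the largest share in both, with 42.5% in WT after PEG and 44.3% in WT at 0 h. With the 5 copies summed, so that the placement of reads among them matters less, *LHCB1* had 65937 FPKM in WT after PEG and 28575 FPKM in WT at 0 h, a ratio of 2.31.

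LHCB2, the other protein of the LHCII trimer that is phosphorylated in state transitions, stood on the other side of 1. *LHCB2.1* (AT2G05100) had 2444 FPKM in OX5-4, 2345 in *atbbd1*, 2614 in WT after PEG and 3452 in WT at 0 h, a ratio of 0.757 between the WT libraries. *LHCB2.2* (AT2G05070) had 2339 FPKM in OX5-4, 2413 in *atbbd1*, 2772 in WT after PEG and 3342 in WT at 0 h, a ratio of 0.829. *LHCB2.3* (AT3G27690) had 936 FPKM in OX5-4, 989 in *atbbd1*, 898 in WT after PEG and 1135 in WT at 0 h, a ratio of 0.791. Each of the 3 copies was highest at 0 h, and they summed to 6284 FPKM in WT after PEG and 7928 FPKM in WT at 0 h. *LHCB3* (AT5G54270), found in the moderately bound trimers of PSII, had 7359 FPKM in WT after PEG and 4532 FPKM in WT at 0 h, a ratio of 1.62.

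**Figure D4:**
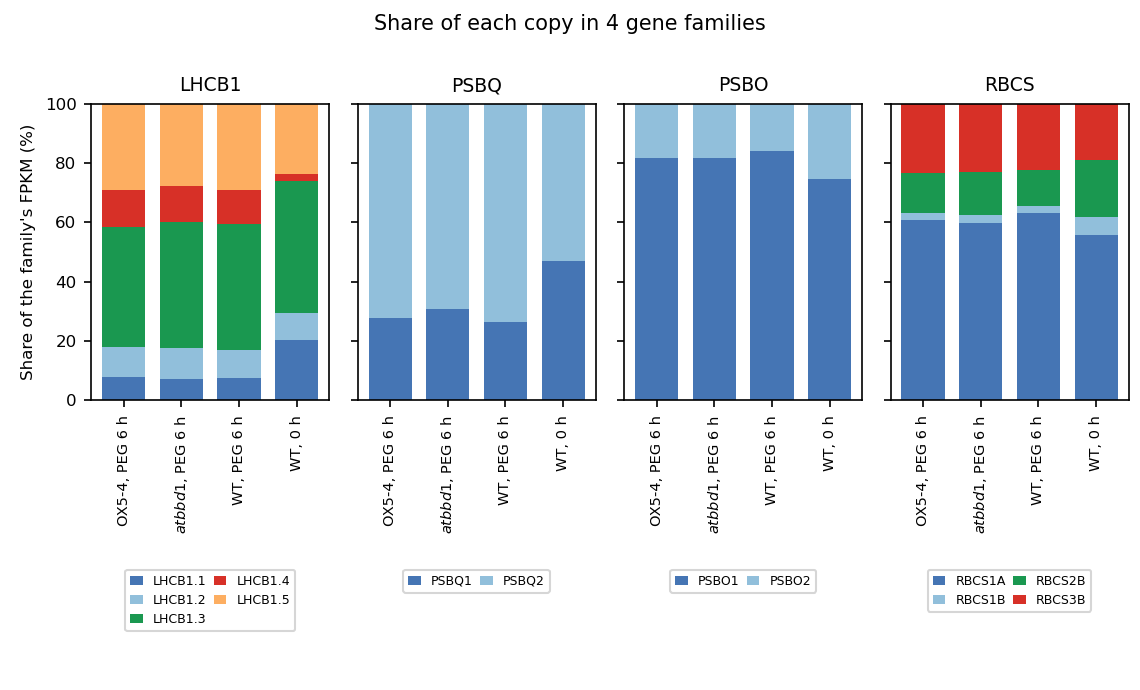
Share of each copy (%) in the summed FPKM of *LHCB1*, *PSBQ*, *PSBO* and *RBCS*, as stacked bars for OX5-4, *atbbd1* and WT after PEG and for WT at 0 h. The 3 PEG bars resemble each other in each family, and in *LHCB1* the share of *LHCB1.4* is 11.5% in WT after PEG and 2.44% in WT at 0 h.

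The monomeric antenna proteins CP29, CP26 and CP24, which link the trimers to the PSII core and are made from *LHCB4*, *LHCB5* and *LHCB6*, stood above their 0 h level like *LHCB3*, except for the rare isoforms. *LHCB5* (AT4G10340), the most abundant of them, had 6312 FPKM in OX5-4, 7325 in *atbbd1*, 6754 in WT after PEG and 4458 in WT at 0 h, a ratio of 1.52 between the WT libraries. *LHCB4.1* (AT5G01530) had 3407 FPKM in OX5-4, 4143 in *atbbd1*, 3522 in WT after PEG and 2117 in WT at 0 h, a ratio of 1.66. *LHCB4.2* (AT3G08940) had 2183 FPKM in OX5-4, 2351 in *atbbd1*, 2553 in WT after PEG and 2037 in WT at 0 h, a ratio of 1.25, and *LHCB6* had one of 1.28. All 4 of these genes were lowest at 0 h, unlike the rare isoforms. *LHCB4.3* (AT2G40100), a rare CP29 isoform, was 3.5 times lower in WT after PEG, with 22.7 FPKM against 79.5 FPKM in WT at 0 h (interval of the fold 3.17 to 3.87). *LHCB7* (AT1G76570), the rarest member, had 20 FPKM in WT after PEG and 37.6 FPKM in WT at 0 h, a ratio of 0.531 on 382 and 701 reads.

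The antenna of PSI was divided in the same way between abundant and rare genes. *LHCA1* to *LHCA4* form the antenna belt of PSI, and their ratios lay between 1.45 and 1.82. *LHCA2* (AT3G61470) had 4496 FPKM in OX5-4, 5004 in *atbbd1*, 4905 in WT after PEG and 2699 in WT at 0 h, a ratio of 1.82 between the WT libraries. *LHCA1* (AT3G54890) shared that ratio, with 6848 FPKM in OX5-4, 7026 in *atbbd1*, 6714 in WT after PEG and 3696 in WT at 0 h. The 0 h library was the lowest for all 4 genes of the belt. *LHCA3* (AT1G61520) had 4224 FPKM in OX5-4, 4821 in *atbbd1*, 4668 in WT after PEG and 3044 in WT at 0 h. *LHCA4* (AT3G47470) had 7333 FPKM in OX5-4, 7997 in *atbbd1*, 8028 in WT after PEG and 5519 in WT at 0 h. These were the highest deposited FPKM of the LHCI genes in each library. *LHCA5* and *LHCA6* encode low-abundance proteins that link PSI to the chloroplast NDH complex, and both were below their 0 h level. *LHCA6* (AT1G19150) had 115 FPKM in OX5-4, 160 in *atbbd1*, 88.5 in WT after PEG and 149 in WT at 0 h, a ratio of 0.593 between the WT libraries (0.557 to 0.631). For this gene WT after PEG was the lowest of the 4 libraries, and *atbbd1* was above the 0 h library.

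Of the 12 PSI subunit genes, 11 were above their 0 h level in WT after PEG, and the 12 summed to 40854 FPKM in WT after PEG and 28479 FPKM in WT at 0 h. *PSAE2* (AT2G20260), 1 of 2 genes for a stromal subunit near the ferredoxin docking site, had 1314 FPKM in OX5-4, 1432 in *atbbd1*, 1409 in WT after PEG and 526 in WT at 0 h, 2.68 times higher in WT after PEG (2.59 to 2.77). *PSAE1* (AT4G28750), its paralog, had 3997 FPKM in OX5-4, 4344 in *atbbd1*, 4190 in WT after PEG and 2745 in WT at 0 h. The copies thus differed in size of ratio, and *PSAE2* held 25.2% of *PSAE* FPKM in WT after PEG and 16.1% in WT at 0 h. *PSAO* (AT1G08380), a subunit involved in the docking of LHCII on PSI, had 6074 FPKM in OX5-4, 6677 in *atbbd1*, 6042 in WT after PEG and 3188 in WT at 0 h, the highest PSI level of each PEG library and a ratio of 1.89. *PSAH2* (AT1G52230), a subunit of the same docking region, was the 1 PSI gene below its 0 h level, with 1969 FPKM in OX5-4, 2523 in *atbbd1*, 2080 in WT after PEG and 2343 in WT at 0 h. In *atbbd1* this gene was above its 0 h level in WT. *PSAN* (AT5G64040), a lumenal subunit on the plastocyanin side, had 2327 FPKM in OX5-4, 2952 in *atbbd1*, 2626 in WT after PEG and 2338 in WT at 0 h. Its ratio between the WT libraries was 1.12, and that of *PSAF*, which binds plastocyanin, was 1.54. The remaining PSI genes, for the ferredoxin-side subunit PSAD and for *PSAG*, *PSAK*, *PSAL* and *PSAH1*, had ratios of 1.12 to 1.67.

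The 10 PSII subunit genes summed to 34606 FPKM in WT after PEG and 26703 FPKM in WT at 0 h, a ratio of 1.3. *PSBR* (AT1G79040), a small protein near the oxygen-evolving complex, had the highest level with 8913 FPKM in OX5-4, 8838 in *atbbd1*, 8624 in WT after PEG and 6345 in WT at 0 h. PSBO, PSBP and PSBQ form the extrinsic shield of the oxygen-evolving complex, and the copies of *PSBQ* and of *PSBO* differed in direction. *PSBQ2* (AT4G05180) had 3026 FPKM in OX5-4, 3538 in *atbbd1*, 3470 in WT after PEG and 1702 in WT at 0 h, 2.04 times higher in WT after PEG (2.01 to 2.07). *PSBQ1* (AT4G21280) had 1152 FPKM in OX5-4, 1582 in *atbbd1*, 1244 in WT after PEG and 1499 in WT at 0 h, a ratio of 0.83. *PSBQ1* was below *PSBQ2* in each library, and the copies stood closest at 0 h. *PSBO2* (AT3G50820) had 1168 FPKM in OX5-4, 1348 in *atbbd1*, 1043 in WT after PEG and 1435 in WT at 0 h, a ratio of 0.727. *PSBO1*, the main copy, had a ratio of 1.31, so the share of *PSBO2* was 15.9% in WT after PEG and 25.3% in WT at 0 h. The upstream window of *PSBQ2* printed above holds a pair of G-boxes and an I-box, and that of *PSBQ1* holds G-boxes as well.

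*PSBS* (AT1G44575) encodes the protein that triggers the fast, reversible dissipation of excess light energy in the PSII antenna. It had 450 FPKM in OX5-4, 580 in *atbbd1*, 407 in WT after PEG and 1142 in WT at 0 h. It was 2.81 times lower in WT after PEG than in WT at 0 h (2.75 to 2.87), and the 3 PEG libraries all lay below the 0 h library. Among the small membrane subunits, *PSBX* (AT2G06520) had 3439 FPKM in OX5-4, 4100 in *atbbd1*, 3990 in WT after PEG and 2889 in WT at 0 h, a ratio of 1.38. *PSBW* had a ratio of 1.62 and *PSBY* of 0.812, and *PSBP1* of the oxygen-evolving shield had one of 1.39.

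All 5 genes of Rubisco and its activase were below their 0 h level, and their sum was 17086 FPKM in WT after PEG and 35159 FPKM in WT at 0 h, a ratio of 0.486. *RBCS1A* (AT1G67090), the main small subunit gene, had 8934 FPKM in OX5-4, 13096 in *atbbd1*, 9347 in WT after PEG and 15027 in WT at 0 h, a ratio of 0.622 between the WT libraries. *RBCS1B* (AT5G38430) had 343 FPKM in OX5-4, 641 in *atbbd1*, 359 in WT after PEG and 1688 in WT at 0 h, 4.71 times lower in WT after PEG (4.61 to 4.81), which was the lowest ratio of the 48 members. *RBCS2B* (AT5G38420) had 1995 FPKM in OX5-4, 3137 in *atbbd1*, 1781 in WT after PEG and 5162 in WT at 0 h, 2.9 times lower in WT after PEG. *RBCS3B* (AT5G38410), the third gene of the tandem row on chromosome 5, had 3479 FPKM in OX5-4, 5083 in *atbbd1*, 3314 in WT after PEG and 5166 in WT at 0 h, a ratio of 0.641. The ratios of the 3 tandem genes thus ran from 0.212 to 0.641, although all 3 lay below 1.

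The window of *RBCS2B* holds a G-box and 3 I-boxes, and that of *RBCS1B*, next to it, holds none of the strings. These windows do not cover matching stretches. The end of the *RBCS1B* window resembles the part of the *RBCS2B* window that leads up to its I-box farthest upstream. The stretch of *RBCS1B* that would match the boxes of *RBCS2B* thus lies outside its window, on the side of the annotated gene, and was not searched. Whether *RBCS1B* lacks the strings there was not tested. The copies of the row summed to 5453 FPKM in WT after PEG and 12015 FPKM in WT at 0 h, a ratio of 0.454. *RCA* (AT2G39730) had 1990 FPKM in OX5-4, 2424 in *atbbd1*, 2286 in WT after PEG and 8116 in WT at 0 h, 3.55 times lower in WT after PEG (3.52 to 3.58), and no PEG library came near the 0 h level.

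Genes that work beside these complexes were counted by list. Over all genes, 16.1% were at least 2-fold higher and 15.9% at least 2-fold lower in WT after PEG. Of 18 other Calvin-Benson cycle and CP12 genes, 7 were at least 2-fold lower in WT after PEG, none was at least 2-fold higher, and 17 lay below their 0 h level, with a median log2 ratio of -0.66. *FBA1*, a plastid aldolase, had 202 FPKM in WT after PEG and 1965 FPKM in WT at 0 h. Of 8 genes of chlorophyll synthesis, 3 were at least 2-fold lower and 1, *PORB*, was higher, with 1163 FPKM in WT after PEG and 25.1 FPKM in WT at 0 h. Of 8 genes of mobile electron carriers and the cytochrome b6f complex, 2 ferredoxins were at least 2-fold lower and *FNR2*, a ferredoxin-NADP reductase, was at least 2-fold higher. Of 8 light-harvesting-like and light-stress genes, 4 were at least 2-fold lower, with *ELIP2*, an early light-induced protein, at 0.14 FPKM (2 reads) in WT after PEG and 49.1 FPKM in WT at 0 h. Nuclear ATP synthase genes held no call among 4.

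Mesophyll and vascular markers and measures of the time of day moved with this comparison, in which 16.1% of all genes were called higher and 15.9% lower. The 5 mesophyll markers summed to 2388 FPKM in WT after PEG and 5715 FPKM in WT at 0 h, with 4 of 5 at least 2-fold lower. Of the 6 vascular markers kept, 3 were at least 2-fold lower. The vascular list summed to 69.5 FPKM in WT after PEG and 186 FPKM in WT at 0 h. Of 4 guard cell markers kept, 1 was above and 3 were below their 0 h level. Of 2 epidermis markers kept, 1 was above and 1 below, and the 1 trichome marker kept was below. All 5 evening clock genes were higher by 2-fold or more in WT after PEG, with a median log2 ratio of 4.28, and of 4 morning clock genes 3 were at least 2-fold lower and *PRR7* was higher, with 86.6 FPKM in WT after PEG and 21.4 FPKM in WT at 0 h. *CCA1*, the morning clock factor for which the CCA1-binding letters are named, had 3.55 FPKM in WT after PEG and 157 FPKM in WT at 0 h. Their part in the values of the members was not tested.

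The second comparison set OX5-4 against WT, both after 6 h of PEG, and asked whether the overexpression line differed in these genes under stress. The members of OX5-4 lay close to WT, and none passed the 2-fold threshold in either direction, where 2.45% of all genes were higher and 1.31% lower. At 1.5-fold none passed either, against 5.9% of all genes higher and 4.29% lower. Below their WT level were 35 members and above it 13, with a median log2 ratio of -0.08 against 0.01 over all genes. The ratios ran from 0.844 for *LHCB2.2* to 1.3 for *LHCA6* and *LHCB4.3*.

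*LHCB2.2* had 2339 FPKM in OX5-4 and 2772 FPKM in WT, and its copies *LHCB2.1* and *LHCB2.3* had ratios of 0.935 and 1.04. *LHCB1.3*, the most abundant transcript of the set, had 24370 FPKM in OX5-4 and 28005 FPKM in WT, a ratio of 0.87 (0.867 to 0.873). *LHCB3* had a ratio of 0.856 and *LHCB4.2* of 0.855. Of the 12 PSI genes, 11 were below WT, with ratios down to 0.886 for *PSAN*, and *PSAO* alone stood above, at 1.01. *LHCB1.4*, *PSAO* and *LHCA1* moved to the other side of 1 when libraries were rescaled, and the sums of all 6 complexes stayed below 1 under each scaling tried.

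The members of OX5-4 that stood highest against WT were the rare ones. *LHCA6* had 115 FPKM in OX5-4 and 88.5 FPKM in WT (ratio 1.3, interval 1.22 to 1.38). *LHCB4.3* had 29.6 FPKM in OX5-4 and 22.7 FPKM in WT (ratio 1.3, interval 1.16 to 1.46). *LHCB7* had 25.6 FPKM in OX5-4 and 20 FPKM in WT (ratio 1.28, interval 1.12 to 1.47). *PSBO2* and *PSBS* had ratios of 1.12 and 1.11. Rubisco and activase genes summed to 16741 FPKM in OX5-4 and 17086 FPKM in WT, a ratio of 0.98, with *RBCS2B* at 1.12 and *RCA* at 0.87.

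The third comparison set *atbbd1* against WT, both after PEG. No member passed the 2-fold threshold, where 1.07% of all genes were higher and 5.29% lower. At 1.5-fold, 5 members (10.4%) were higher, against 3.48% of all genes, and none was lower, against 11.9% of all genes. Those 5 were *LHCA6*, *LHCB4.3*, *RBCS1B*, *RBCS2B* and *RBCS3B*. The *RBCS* genes among them are near-identical tandem copies that share stretches of sequence, so they do not count as independent members. Above their WT level were 40 members, and 8 lay below it, with a median log2 ratio of 0.12. Over all 16374 genes the median was -0.09, with 5756 above and 10534 below, so the members lay on the other side of WT from most genes. When libraries were scaled by the median of ratios, the median was 0.23 for the members and -0.01 for all genes.

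**Figure D5:**
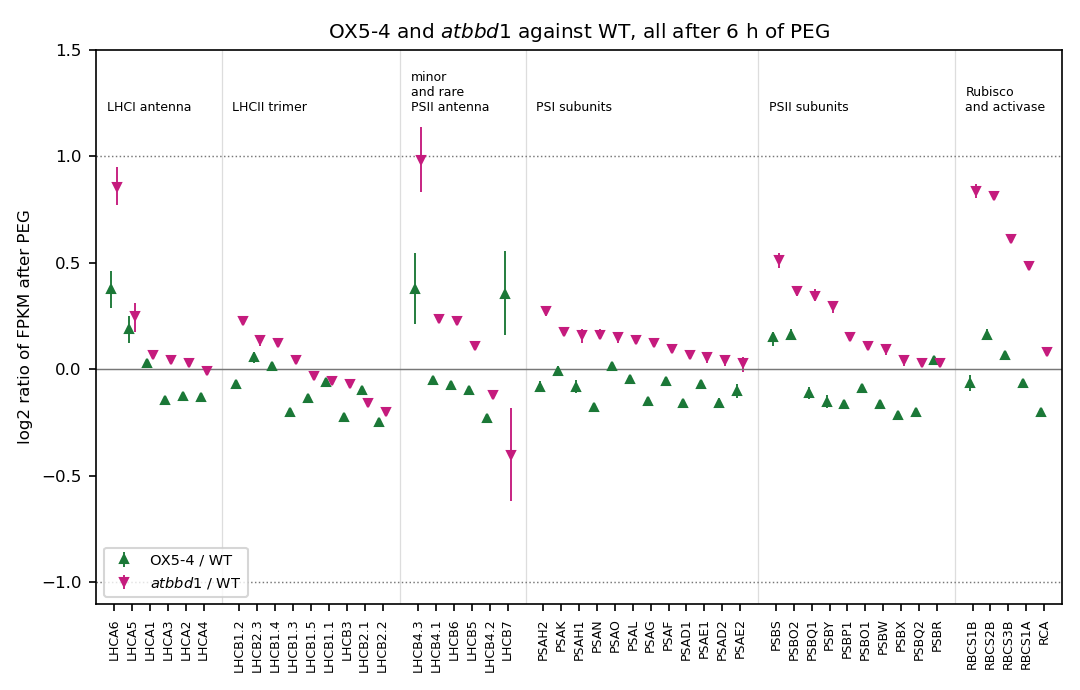
Log2 ratio of FPKM of OX5-4 over WT and of *atbbd1* over WT, all after 6 h of PEG, for each of the 48 members, with exact 95% counting intervals; both ratios use the same WT library. No point passes the dotted lines at a ratio of 2, and the *atbbd1* points of the 4 *RBCS* genes stand between 0.49 and 0.84.

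The Rubisco small subunit stood out among the complexes in *atbbd1*. The 4 *RBCS* genes summed to 21957 FPKM in *atbbd1* and 14800 FPKM in WT, a ratio of 1.48. *RBCS1B* had 641 FPKM in *atbbd1* and 359 FPKM in WT, 1.79 times higher (1.75 to 1.83). *RBCS2B* had 3137 FPKM in *atbbd1* and 1781 FPKM in WT, 1.76 times higher (1.74 to 1.79). *RBCS3B* was 1.53 times and *RBCS1A* 1.4 times higher. All 4 lay between the level of WT after PEG and that of WT at 0 h. *RCA* did not share this difference in size, with 2424 FPKM in *atbbd1* and 2286 FPKM in WT, a ratio of 1.06 (1.05 to 1.07). The single WT library after PEG divides these ratios and is the upper term of those against WT at 0 h. An error in that library would move the ratios of both comparisons in opposite directions, and its size was not tested.

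Within the antenna, the rare genes again stood at the ends. *LHCB4.3* had 45 FPKM in *atbbd1* and 22.7 FPKM in WT, 1.98 times higher (1.78 to 2.2), just short of the 2-fold threshold, and it passed the threshold when libraries were scaled by the median of ratios, as did 1.35% of all genes. *LHCA6* had 160 FPKM in *atbbd1* and 88.5 FPKM in WT, 1.81 times higher (1.71 to 1.93). *LHCB7* had 15.2 FPKM in *atbbd1* and 20 FPKM in WT, a ratio of 0.758 (0.651 to 0.883) and the lowest of the 48.

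The abundant antenna genes differed little. *LHCB1* summed to 67819 FPKM in *atbbd1* and 65937 FPKM in WT, a ratio of 1.03, with *LHCB1.2* highest at 1.17. *LHCB2.1* and *LHCB2.2* had ratios of 0.897 and 0.871. *LHCA1* to *LHCA4* had ratios of 0.996 to 1.05, and *LHCA4* moved to the other side of 1 when libraries were rescaled, as did *LHCB1.1*, *LHCB1.5* and *LHCB3* under the median of ratios.

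All 12 PSI and all 10 PSII subunit genes were above WT in *atbbd1*, by ratios of 1.02 to 1.43. *PSBS* was highest, with 580 FPKM in *atbbd1* and 407 FPKM in WT (ratio 1.43, interval 1.39 to 1.46). *PSBO2* and *PSBQ1* are the copies of the oxygen-evolving shield that were below their 0 h level in WT. They had ratios of 1.29 and 1.27, against 1.08 for *PSBO1* and 1.02 for *PSBQ2*. Both comparisons share the WT library after PEG, where a low value lowers the ratio to 0 h and raises that of *atbbd1*. No relation between the comparisons was computed. *PSAH2* had 2523 FPKM in *atbbd1* and 2080 FPKM in WT, a ratio of 1.21 and the highest of PSI. *PSAE2* was lowest of PSI at 1.02 (0.993 to 1.04), an interval that includes 1.

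Of the lists of other photosynthesis genes, several lay above WT in *atbbd1* and others did not. Of the 18 other Calvin-Benson cycle and CP12 genes, 16 were above WT in *atbbd1*, none by 2-fold. Their median log2 ratio was 0.41 in *atbbd1* and 0.00 in OX5-4. All 8 genes of electron carriers and cytochrome b6f were above WT in *atbbd1*, with a median log2 ratio of 0.30. So were all 6 genes listed as other PSII proteins and assembly, at 0.34. That list includes *PnsL1*, which bears the name of a subunit of the chloroplast NDH complex. Of 10 genes that act on antenna insertion or phosphorylation, or in transcription, 4 were above and 6 below WT in *atbbd1*. Their median log2 ratio was -0.04. *SIGE*, a sigma factor of the plastid RNA polymerase, was lowest of them at a ratio of 0.407, with 4.85 FPKM in *atbbd1* and 11.9 FPKM in WT. Of 3 genes of cyclic electron flow, 1 was above and 2 below WT in *atbbd1*, with a median log2 ratio of -0.03. Chlorophyll synthesis genes had a median log2 ratio of 0.27 in *atbbd1* and -0.09 in OX5-4. Of 4 genes of chlorophyll breakdown, all were above WT in OX5-4, with a median log2 ratio of 0.71, and 3 were below WT in *atbbd1*, at -0.53. *ACD1*, which opens the chlorophyll ring as pheophorbide a oxygenase, had 120 FPKM in OX5-4, 38.7 in *atbbd1* and 56.2 in WT after PEG.

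Mesophyll and vascular markers differed in the *atbbd1* library as well. All 5 mesophyll markers were above WT, with sums of 3282 FPKM in *atbbd1* and 2388 FPKM in WT. All 6 vascular markers kept were above WT and 2 of them at least 2-fold, as were 1.07% of all genes. The list sums were 132 FPKM in *atbbd1* and 69.5 FPKM in WT. In OX5-4 the sums were 2516 FPKM for mesophyll and 83.8 FPKM for vascular markers. Of 4 guard cell markers kept, 3 were above and 1 was below WT in *atbbd1*. Of 2 epidermis markers kept, 1 was above and 1 below, and the 1 trichome marker kept was above. All 4 morning clock genes were below WT in *atbbd1*, with a median log2 ratio of -0.37. Their part in the values of the members was not tested.

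Set directly against *atbbd1*, OX5-4 had 45 members lower and 3 higher, with a median log2 ratio of -0.21 against 0.09 over all genes. No member passed the 2-fold threshold, where 7.33% of all genes were higher and 1.28% lower. *RBCS1B* had 343 FPKM in OX5-4 and 641 FPKM in *atbbd1*, the lowest ratio at 0.535. The other complexes were lowest at *LHCB4.3* with 0.659, *LHCA6* with 0.716, *PSBQ1* with 0.728, *PSAH2* with 0.78 and *LHCB1.2* with 0.816, and all 12 PSI genes were below *atbbd1*. The Rubisco and activase genes summed to 16741 FPKM in OX5-4 and 24381 FPKM in *atbbd1*. *LHCB7* had 25.6 FPKM in OX5-4 and 15.2 FPKM in *atbbd1*, the highest ratio at 1.69. *LHCB2.1* and *PSBR* were the other members on that side, at 1.04 and 1.01, and both changed side under a scaling by the median of ratios. Because the OX5-4 and *atbbd1* ratios above share the WT library, their values are given side by side and no relation between them was computed.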

How the data were processed

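Messenger RNA of leaves was sequenced in 4 libraries, 1 per condition, grouped by their labels. The authors deposited FPKM per gene, and the submitters' processing notes name TopHat2, Cufflinks and TAIR10. The methods of the study name another aligner, so which of them made the table is not certain, and the methods name a kit that keeps strand, while the sources used here do not say whether reads were counted by strand. Genes were kept if a library reached 1 FPKM. Ratios are plain ratios of FPKM, a call is a ratio of at least 2, and medians use log2(FPKM + 1), which understates the change of low genes. Library sizes were estimated from the steps of low values, with a method tested on simulated data, and give exact 95% binomial intervals on reads. With 1 library per condition no test between conditions was run. The members and lists were chosen with earlier results of these data known. Genes named in full are, for each complex, those with the highest level and the highest and lowest ratio of each comparison, and, where a list is illustrated, those with its highest or lowest ratio. Members also called, or completing a family, are named too, and others were chosen after their values were seen. All 48 members and 27445 of the 27655 genes of the table were matched by gene ID to RefSeq TAIR10.1, from which the sequences, positions and exon lengths were read. Scripts ran in Python 3.11.15 with numpy 2.4.6, pandas 2.3.3, scipy 1.17.1, matplotlib 3.10.9 and biopython 1.88. Alternatives were 2 rescalings of the libraries, other thresholds, a pseudocount of 0.1, a filter at 5 FPKM or none, copies summed, organelle genes left out, recovered reads in place of FPKM, and the shortest transcript as gene length, the last chosen after seeing the data.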

Additional observations from a re-analysis of the deposited data

How the results depend on the processing

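No paired analysis was possible because each condition has 1 library, and for the same reason no library could be left out. The alternatives gave 176 values of counts, medians, shares, sums and levels. A change of direction was looked for in the medians and sums alone, and none of these changed direction. Of the 176 values, 83 moved by less than their counting error or, for counts of members, by no more than 1.5 times. The filters on low FPKM could not move a value, because all 48 members reached 5 FPKM in a library. Single members near a ratio of 1 that changed side are named in the report. Values below are given under scaling by the median of ratios first and under a common sum outside the members second, and the cause of each shift is the scaling itself. For WT after PEG against WT at 0 h the median log2 ratio of the members was 0.32 and 0.47, and the ratios of summed FPKM were 1.55 and 1.72 for the LHCI antenna, 1.87 and 2.08 for the LHCII trimer, 1.37 and 1.52 for the minor antenna, 1.39 and 1.54 for PSI, 1.25 and 1.39 for PSII and 0.47 and 0.522 for Rubisco and activase. For OX5-4 against WT they were 0.935 and 0.921, 0.897 and 0.884, 0.925 and 0.911, 0.94 and 0.926, 0.932 and 0.918, and 0.97 and 0.956 in the same order of complexes, with a median of -0.12 under the common sum. For *atbbd1* against WT they were 1.1 and 1.04, 1.09 and 1.02, 1.19 and 1.11, 1.17 and 1.1, 1.16 and 1.09, and 1.53 and 1.44, with a median of 0.23 under the median of ratios. For OX5-4 against *atbbd1* they were 0.847 and 0.889, 0.824 and 0.865, 0.78 and 0.819, 0.802 and 0.842, 0.804 and 0.844, and 0.632 and 0.663, with medians of -0.33 and -0.26. Under the median of ratios 1 member, *LHCB4.3*, was 2-fold higher in *atbbd1* than in WT, as were 1.35% of all genes, and 1 member, *RBCS1B*, was 2-fold lower in OX5-4 than in *atbbd1*, as were 1.83% of all genes, so that 1 of 48 is near the share of all genes in both.

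Thresholds moved the counts of members. For WT after PEG against WT at 0 h, 1 was higher and 1 lower at 4-fold, against 5.95% and 5.17% of all genes, and 17 were higher and 9 lower at 1.5-fold, against 27.4% and 25.4% of all genes. With copies summed 3 genes or families were higher, with a median of 0.41. At 1.5-fold 5 were higher in *atbbd1* than in WT, against 3.48% of all genes, and 1 was higher and 3 lower in OX5-4 than in *atbbd1*, against 15.0% and 4.81% of all genes. Without organelle genes the members held 31.8% of FPKM in OX5-4, 35.8% in *atbbd1*, 33.9% in WT after PEG and 26.1% in WT at 0 h, and in recovered reads 25.5%, 29.4%, 27.4% and 20.8% in that order. With the shortest transcript as gene length, levels of 5 members were 1.46 to 2.25 times higher (*LHCA3*, *LHCB4.3*, *PSBS*, *RBCS1B* and *RBCS3B*). Their ratios could not move, because the length of a gene is the same in every library. By that length *LHCA3* had 8052 FPKM in *atbbd1*, above the 7997 FPKM of *LHCA4*. Reads limited precision only for the rarest members, *LHCB7* and *LHCB4.3*.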

Other observations

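Genes that act on antenna insertion or phosphorylation, or in transcription, were uneven in WT after PEG against WT at 0 h. *TAP38*, the phosphatase that reverses the phosphorylation of LHCII in state transitions, had 267 FPKM in WT after PEG and 80.7 FPKM in WT at 0 h, while *STN7*, the kinase, had 75.2 FPKM in WT after PEG and 109 FPKM in WT at 0 h. *SIGE*, a sigma factor of the plastid RNA polymerase, had 16.4 FPKM in OX5-4, 4.85 in *atbbd1*, 11.9 in WT after PEG and 95.4 in WT at 0 h. *GLK2*, a transcription factor of chloroplast development, had 68.3 FPKM in WT after PEG and 131 FPKM in WT at 0 h.

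Of 4 genes of chlorophyll breakdown, 3 were at least 2-fold higher in OX5-4 than in *atbbd1*, both after PEG, and *NYC1*, chlorophyll b reductase, was not. The share over all genes was 7.33%. *NYE1*, also called *SGR1*, had 26.1 FPKM in OX5-4, 8.97 in *atbbd1* and 13.3 in WT, and *PPH*, pheophytinase, had 71 FPKM in OX5-4, 26.8 in *atbbd1* and 49.9 in WT. *NYC1* had 124 FPKM in OX5-4, 130 in *atbbd1* and 106 in WT. Of the genes named here, *STN7*, *GLK2*, *NYE1*, *NYC1* and *PPH* were chosen after their values were seen.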
